A study of Homo sapiens with 10 samples.

Results

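Translation after 6 h of nutlin-3a was followed in BJ cells, a human fibroblast line immortalised with telomerase (hTERT), by setting the change in ribosome density of each gene beside the change in its RNA. Nutlin-3a is a small molecule that frees p53 from its inhibitor MDM2. The comparison rests on 4 libraries: RNA-Seq of poly(A) RNA and Ribo-Seq of ribosome-protected fragments, each from control cells without nutlin-3a and from cells treated for 6 h. All cells carried hTERT and grew in medium with serum, and those for Ribo-Seq were exposed to cycloheximide before lysis. BJ is 1 immortalised line, so nothing here speaks of other fibroblasts. The series holds 6 further libraries, taken at 2, 4 and 19 h, which are used here to place the values at 6 h and in the choice of genes. Genes were included where a transcript had at least 5 FPKM (reads scaled to transcript length and library size) in any library of each assay. This left 7015 genes of the 11258 transcripts found in both tables. Of the 4243 left out, 1394 were low in Ribo-Seq alone, 234 in RNA-Seq alone and 2615 in both. The gene just inside the limit was ERC1, with a highest value of 5 FPKM in its lower assay, and the gene just outside was RGL2, with 4.997 FPKM.

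A ribosome covers a short stretch of the mRNA that it reads, and that stretch survives digestion with RNase. The number of such fragments on a transcript, called density here (Ribo-Seq FPKM), follows both how much mRNA there is and how many ribosomes each molecule carries. Translational efficiency (TE) separates these: a TE change is the log2 change of the Ribo-Seq FPKM minus the log2 change of the RNA-Seq FPKM. Many mRNAs for ribosomal proteins and elongation factors begin with a C and a run of pyrimidines, the 5′ terminal oligopyrimidine tract (5′-TOP). Translation of 5′-TOP mRNAs is known to depend on the mTOR kinase, and the sestrins, which are p53 targets, are known to restrain mTOR.

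To show what such a start looks like, the 30 bases around the annotated start of some of the genes described below are given from RefSeq (GRCh38.p14), 10 before the start and 20 from it on, 5′ to 3′. Where several runs of a C followed by at least 4 pyrimidines open within 10 bases of the start, capitals mark the one whose C lies nearest to it, so pyrimidines left in lower case before the capitals, as in RPL34 and RPL21, can belong to the same run. The first 6 are from mRNAs whose TE fell, 5 of them of the translation machinery, and a run can be read from the first transcribed base in each.
RPL34 (chr4:108620566-108620595, plus strand): cttttttcttCCTCTTCCggggacgttgtc
RPS23 (chr5:82278335-82278364, minus strand): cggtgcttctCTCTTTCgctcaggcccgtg
RPL21 (chr13:27251548-27251577, plus strand): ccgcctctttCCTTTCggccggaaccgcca
RPS24 (chr10:78033853-78033882, plus strand): aatcgtggttCTCTTTTCCTCCTTggctgt
EEF1A1 (chr6:73521013-73521042, minus strand): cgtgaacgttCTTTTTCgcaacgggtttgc
TPT1 (chr13:45341164-45341193, minus strand): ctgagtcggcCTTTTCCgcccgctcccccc

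The next 6 are shown beside them, from p53 targets, a glycolytic enzyme and mRNAs whose TE rose. TE also fell in RPS27L (-1.05) and was lower in GAPDH. The genes shown were picked as examples, so they do not tell whether tract and TE go together. In RPS27L, GAPDH and CDKN1A no such run opens within 10 bases, in LRP1 and NES the nearest opens before the annotated start, and in COL5A1 it opens at base 8 of the transcript.
RPS27L (chr15:63157458-63157487, minus strand): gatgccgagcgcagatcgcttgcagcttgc
GAPDH (chr12:6535254-6535283, plus strand): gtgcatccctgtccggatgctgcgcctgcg
CDKN1A (chr6:36678704-36678733, plus strand): tgcgccagctgaggtgtgagcagctgccga
COL5A1 (chr9:134641793-134641822, plus strand): cgaaggcgaggtccgcaCTCTCCgtccccg
LRP1 (chr12:57128473-57128502, plus strand): ccCCCTCggcacttcagtccggggaacagc
NES (chr1:156677388-156677417, minus strand): cccgaCTCTCagtcgctcaggctactccca

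Each group and assay had 1 library, so no difference has a replicate check, no p-value is given, and a gene is called at a change of 2-fold or more. The errors printed are counting SEs, from the reads behind each value, and cover counting alone. FPKM is a share of a library, so a change in the total amount of translation or of RNA cannot be told apart from none. The RNA-Seq libraries held 23845559 (control) and 27554288 reads (6 h), and the Ribo-Seq libraries 11763298 and 10073092. A single transcript, ZNF354B, took 13.2% of the Ribo-Seq reads in the control and 11.2% at 19 h, against 5.09% at 6 h, 4.53% at 2 h and 3.08% at 4 h, while its RNA-Seq level in the control was 1.74 FPKM. Scaling the libraries without the 2 most abundant transcripts, ZNF354B and TMC5, moved the median density change of all genes from -0.02 to -0.14 on the log2 scale. Its part in the changes below was not tested beyond that rescaling. All 12 fibroblast markers had at least 5 FPKM in both RNA-Seq libraries. Of 17 markers of other cell types 8 were absent from the RNA-Seq table and 4 reached that level, among them the keratin KRT18 at 293 FPKM in the control.

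Changes in RNA and density were correlated across genes, since many genes changed in both. Over 7015 genes the log2 changes had a Pearson correlation of 0.732 and a Spearman correlation of 0.510, across genes, which are not independent replicates. The SD across genes was 0.64 for RNA, 0.79 for density and 0.54 for TE, against a median counting SE of 0.05, 0.10 and 0.11. RNA changed by 2-fold or more in 501 genes (7.14%), being higher in 123 and lower in 378 (5.39%). Density was higher in 369 genes (5.26%) and lower in 564 (8.04%).

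Density also changed without RNA, in a larger share of the rises than of the falls. Of the 369 genes with higher density, 177 had an RNA change under 1.5-fold (2.52% of all tested genes), 186 had more RNA and 6 had less. Of the 564 with lower density, 160 had an RNA change under 1.5-fold (2.28% of all tested genes), 400 had less RNA and 4 had more. In terms of TE, 178 genes fell by 2-fold or more (2.54%) and 225 rose (3.21%). The balance depended on the scaling and the baseline: without the 2 most abundant Ribo-Seq transcripts 282 fell and 145 rose, and against the 2 h library 91 fell (1.3%) and 59 rose (0.841%). The falls were mostly at steady RNA, with 145 of the 178 genes under 1.5-fold in RNA. Among the rises this held for 141 of 225, and in another 69 the RNA had dropped by 1.5-fold or more.

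**Figure D1:**
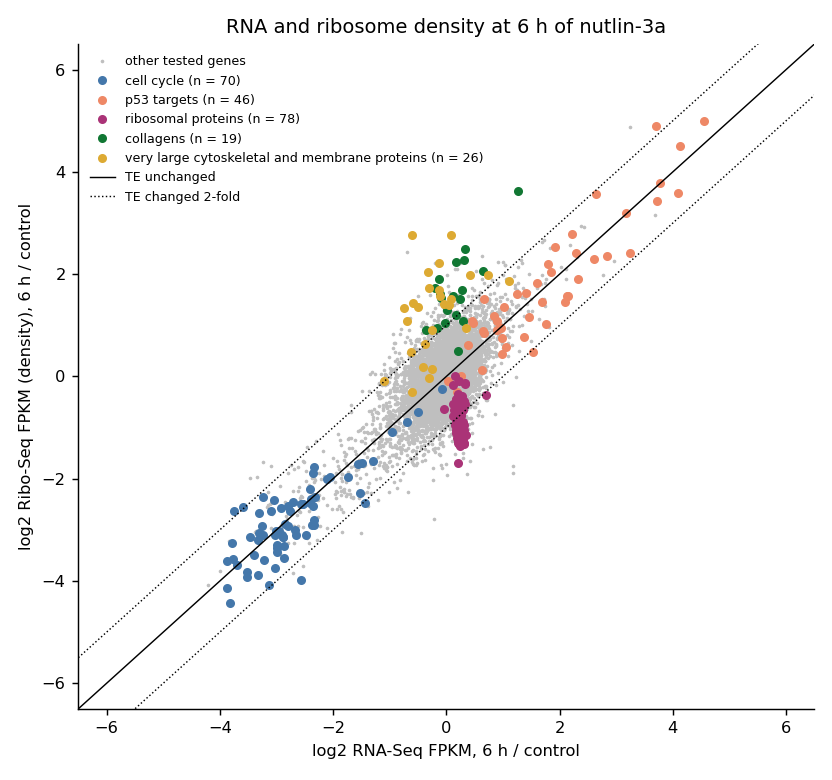
Log2 change at 6 h against control in RNA-Seq FPKM (x axis) and Ribo-Seq FPKM (y axis), 1 point per gene, for 7015 tested genes. Cell-cycle genes and p53 targets lie along the line of equal change, the 78 ribosomal proteins lie below it at nearly constant RNA, and collagens and very large proteins lie above it.

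Ribosomal proteins, the structural parts of both ribosomal subunits, made up the largest listed group with lower TE. Of 80 listed genes 78 were tested. The median log2 TE change was -0.98, which is 0.507 of the control level, against 0.00 over all tested genes. TE fell by 2-fold or more in 38 of 78 genes, beside 2.54% of all tested genes, and rose by that much in none. All 78 values were below 0, from -1.89 to -0.16. The RNA of these genes did not drop: it was higher at 6 h in 77 of 78, with a median change of 0.23 and a highest change of 0.70 (RPS19). Density was lower in 77 of 78, with a median of -0.76. As a share of the Ribo-Seq reads, the 78 transcripts went from 6.43% to 4.01%, while their share of the RNA-Seq reads went from 4.03% to 4.76%.

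The subunits had similar values. The 47 large subunit proteins had a median TE change of -0.997 with 23 called lower, and the 31 small subunit proteins had a median of -0.94 with 15 called lower.

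The lowest values belonged to RPL21, RPL34, RPS24 and RPS23. RPL21, a protein of the large subunit, had 538 FPKM in the RNA-Seq control and 619 at 6 h, and 488 FPKM in the Ribo-Seq control and 151 at 6 h. Its TE change was -1.89 (counting SE 0.05). RPL34, also of the large subunit, had 217 and 268 FPKM in RNA-Seq and 551 and 222 in Ribo-Seq, for a TE change of -1.62 (SE 0.05). In both genes there were fewer footprints on more mRNA, and both begin with a tract in the sequences above. RPS24, of the small subunit, had 150 and 185 FPKM in RNA-Seq and 176 and 71.3 in Ribo-Seq, with a TE change of -1.62 (SE 0.04). RPS23, next to the decoding centre of the small subunit, had 143 and 168 FPKM in RNA-Seq and 192 and 74.5 in Ribo-Seq, with a TE change of -1.60 (SE 0.04). RPL23, a large subunit protein, went from 144 to 166 FPKM in RNA-Seq and from 277 to 174 in Ribo-Seq, a smaller TE change of -0.88 (SE 0.03). The study followed RPL34 and RPL23 in polysome fractions (mRNA carrying several ribosomes) of another cell line, after a longer treatment.

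Among the proteins at the other end, density hardly moved. RPS15 had 1611 FPKM in the Ribo-Seq control and 1613 at 6 h, and with a little more RNA its TE change was -0.16 (SE 0.03). RPL41, a peptide of the large subunit, had 1782 and 1587 FPKM in Ribo-Seq and a TE change of -0.29 (SE 0.02). RPL19 had 2022 and 1912 FPKM and a TE change of -0.31 (SE 0.02), and FAU, a fusion of a ubiquitin-like domain with RPS30, had 504 and 452 FPKM and a TE change of -0.49 (SE 0.04). In all, 7 of 78 proteins had a TE change under 1.5-fold. Across the 78, the TE change had a Spearman correlation of 0.305 with the Ribo-Seq level in the control and of -0.068 with transcript length, which describes these libraries only.

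The libraries at other times share the control library with the comparison at 6 h, so their values are given side by side. The median TE change of the 78 genes was -0.15, 0.14 and -1.32 after 2, 4 and 19 h. Over all tested genes it was 0.04, 0.18 and -0.07. A TE lower by 2-fold or more was seen in 58 of 78 genes at 19 h and in 0 at either 2 h or 4 h, beside 4.21%, 0.057% and 0.128% of all tested genes at 19, 2 and 4 h. From the control through 2, 4, 6 and 19 h, the Ribo-Seq level of RPL34 was 551, 360, 485, 222 and 143 FPKM, so that it was lowest at 19 h and next lowest at 6 h. With the 2 h library as the baseline in place of the control, the median at 6 h was -0.86, all 78 genes were below 0 and 24 were called lower, beside 91 of 7015 tested genes called lower on that baseline.

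**Figure D2:**
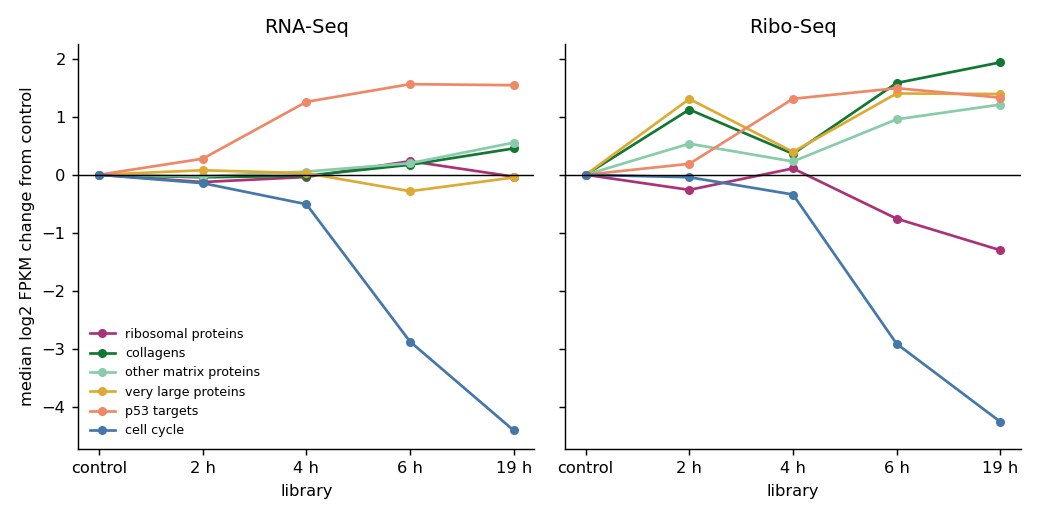
Median log2 FPKM change from the control over the tested members of 6 gene lists, by library, in RNA-Seq (left) and Ribo-Seq (right). For ribosomal proteins the RNA line stays near 0 while the Ribo-Seq line drops at 6 h and 19 h, and for collagens and very large proteins the Ribo-Seq line is up at 2, 6 and 19 h but near the control at 4 h.

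Other parts of the translation machinery had medians below 0, with few members past 2-fold. Values were below 0 in 9 of 12 elongation and termination factors, 29 of 36 initiation factors, 56 of 72 mitochondrial ribosomal proteins and 44 of 64 biogenesis factors, against 3496 of 7015 tested genes. Of 12 elongation and termination factors 2 fell by 2-fold or more, EEF1A1 and EEF1G, beside 2.54% of all tested genes. EEF1A1, which brings aminoacyl-tRNA to the ribosome, had 2528 and 3345 FPKM in RNA-Seq and 2011 and 1055 in Ribo-Seq, a TE change of -1.33 (SE 0.01). EEF1G had 405 and 503 FPKM in RNA-Seq and 183 and 98.4 in Ribo-Seq, a TE change of -1.21 (SE 0.05). The list's median was -0.33, and at the other end stood EIF5A with 0.50 (SE 0.12) and EEFSEC, the selenocysteine factor, with 0.37 (SE 0.14).

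Of 36 initiation factors 2 fell and 1 rose, few genes beside the 2.54% and 3.21% of all tested genes, around a median of -0.35. EIF4B, which helps the helicase eIF4A unwind the mRNA leader, had a TE change of -1.16 (SE 0.05), with 136 and 77.6 FPKM in Ribo-Seq. EIF2A had a TE change of -1.01 (SE 0.10). The scaffold EIF4G1 had 160 and 121 FPKM in RNA-Seq but 39.4 and 82.3 in Ribo-Seq, a TE change of 1.47 (SE 0.04). Its paralog EIF4G3 had 0.56 (SE 0.11). With the 2 h library as the baseline, the TE changes of EIF4G1 and EIF4G3 at 6 h were 0.39 and -0.13.

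Among 15 tested mRNAs outside these lists that are described as 5′-TOP or mTOR-sensitive, the median TE change was -0.59, and 13 values were below 0. TPT1, the translationally controlled tumour protein, was the member that fell: it had 727 and 928 FPKM in RNA-Seq and 483 and 219 in Ribo-Seq, a TE change of -1.49 (SE 0.04). NACA, a subunit of the nascent chain complex, had -0.89 (SE 0.05). VIM (vimentin) with 0.18 (SE 0.01) and PABPC4, a poly(A)-binding protein, with 0.14 (SE 0.07) were above 0. Mitochondrial ribosomal proteins, which serve another ribosome, had a median of -0.29 over 72 genes with 1 called lower, MRPS33 at -1.09 (SE 0.18). MRPS18C had -0.99 (SE 0.15), MRPL55 0.37 (SE 0.14) and MRPS34 0.42 (SE 0.08). Ribosome biogenesis factors had a median of -0.20 over 64 genes with 1 called lower, BRIX1, a factor of large subunit assembly, at -1.12 (SE 0.19). Over all tested genes 2.54% were called lower. The RNA of the biogenesis factors was itself lower, with a median change of -0.25, and TCOF1 and POLR1A of the Pol I system had TE changes of 0.64 (SE 0.09) and 0.64 (SE 0.10).

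**Figure D3:**
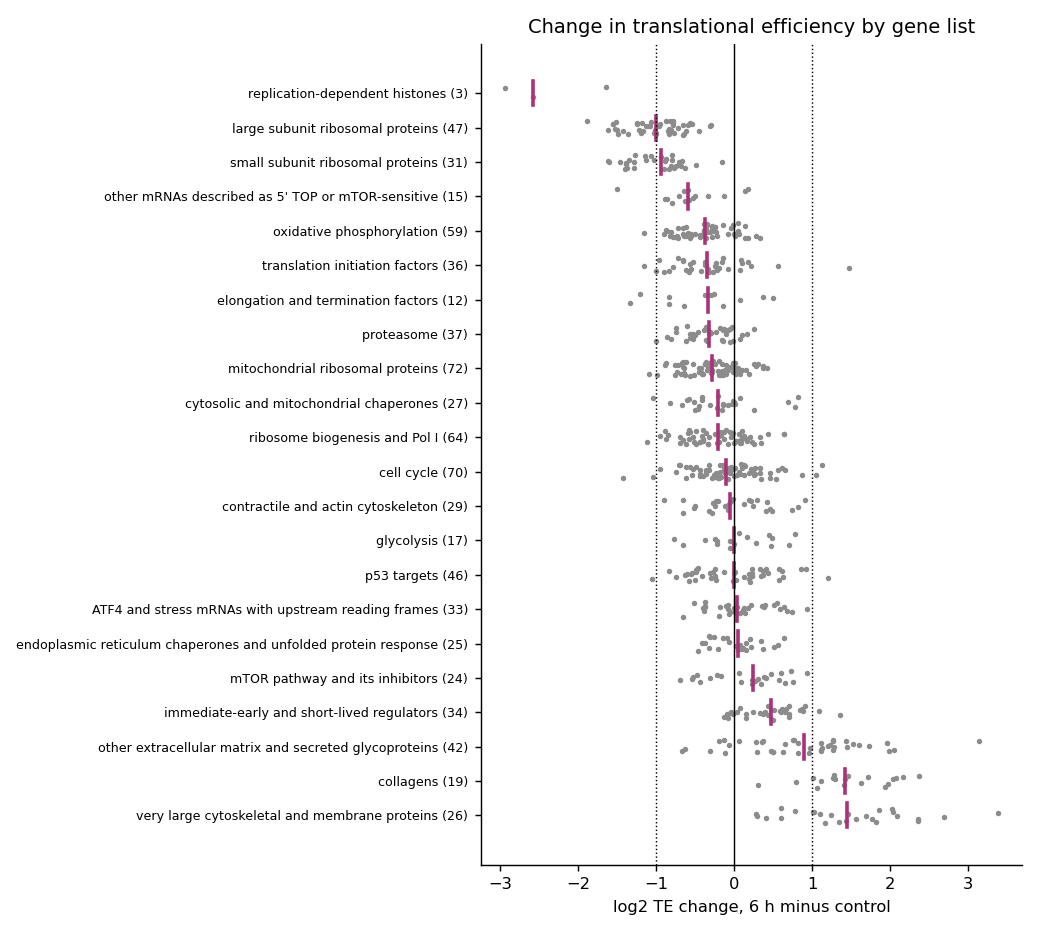
Log2 TE change at 6 h against control for every tested member of 22 gene lists (1 grey point per gene, with vertical scatter only to separate points), with the list median as a purple bar and dotted lines at a 2-fold change. Ribosomal proteins lie wholly below 0, and the collagens and very large proteins lie wholly above it.

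A pyrimidine tract that opens at the annotated start was frequent in ribosomal proteins and less so in the other lists of the translation machinery. It was also frequent in the mRNAs described as 5′-TOP or mTOR-sensitive. Those were listed for that description, so their share follows in part from the choice. It was present in 47 of 63 ribosomal protein genes with a RefSeq start (74.6%), in 8 of 12 of the other 5′-TOP mRNAs (66.7%) and in 507 of 5806 tested genes (8.73%), against 5.14% of 27305 genes in the table of starts. In the other lists its share was 27.3% (elongation and termination), 27.6% (initiation), 9.52% (mitochondrial ribosomal proteins) and 11.5% (biogenesis). With the C allowed anywhere within 10 bases, the shares were 93.7% for ribosomal proteins, 42.2% for tested genes and 38.4% for the whole table, so the wider window separates groups less. Among the 178 genes with lower TE, 37 of 145 with a start sequence had the tract at the start (25.5%), and after leaving out ribosomal proteins 15 of 114 (13.2%). Among the 225 with higher TE it was 8.33%.

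Outside the ribosomal proteins, genes with the tract had a slightly lower median TE change than those without. Among 460 tested genes that have it and encode no ribosomal protein, the median TE change was -0.08 and 15 were called lower (3.26%), against 0.00 and 1.87% in 5283 genes without it. Restricted to transcripts of 1500 nucleotides or less, the medians were -0.29 over 86 genes with the tract, of which 8.14% were called lower, and -0.15 over 948 without, of which 4.54% were. Within the ribosomal proteins, the 16 whose listed starts lack the tract at the first base had a median of -1.14 and the 47 with it -0.96. Annotated starts are not measured starts of these cells, and a missing match says only that these letters are not in the window.

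Histones gave the lowest TE values of any list, on little evidence from RNA. Replication-dependent histone mRNAs carry no poly(A) tail, so a poly(A) library holds few of them, and 3 of the 28 histone transcripts in both tables were tested. HIST1H2BK had 20.5 and 17.7 FPKM in RNA-Seq and 782 and 113 in Ribo-Seq, a TE change of -2.58 (SE 0.11). HIST1H1C, a linker histone, had 10.2 and 9.52 FPKM in RNA-Seq and 1913 and 574 in Ribo-Seq, with -1.64 (SE 0.15). HIST1H2AC had 4.39 and 9.91 FPKM in RNA-Seq and 635 and 188 in Ribo-Seq, with -2.93 (SE 0.13), but its RNA passed the filter only through the 6 h and 19 h libraries, where it is high. Their density fell while the few poly(A) molecules stayed or rose, and how far the RNA-Seq values stand for the mRNA that ribosomes read was not tested. All 28 transcripts together took 1.74%, 1.36%, 1.49%, 0.311% and 0.168% of the Ribo-Seq reads in the control and at 2, 4, 6 and 19 h, so that the drop lay between the 4 h and the 6 h library.

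**Figure D4:**
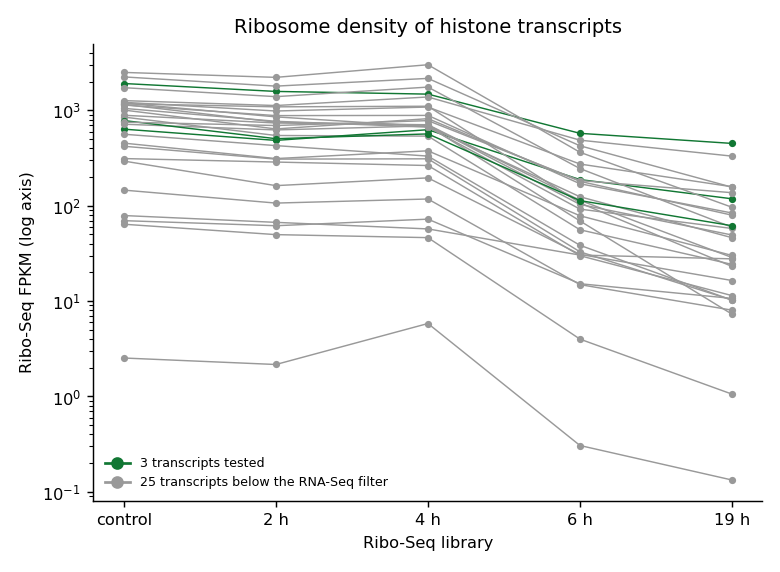
Ribo-Seq FPKM (log axis) of 28 histone transcripts in the control and at 2, 4, 6 and 19 h, with 1 line per transcript and the 3 tested ones in green. Every line is lower at 6 h than in the control, and the 3 tested transcripts go from 782, 1913 and 635 FPKM to 113, 574 and 188.

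Outside the ribosomal proteins, 140 genes had lower TE. Of these 64 had transcripts of 1500 nucleotides or less (45.7%, against 18.8% of all tested genes), and 75 had at least 100 reads in each of the 4 libraries. With RNA under 1.5-fold and 5 FPKM in all 4 libraries, the largest falls beside those of ribosomal proteins and histones were in C8orf59, MTRNR2L1 and C14orf2. C8orf59 had 10.7 and 13.1 FPKM in RNA-Seq and 22.5 and 7.45 in Ribo-Seq, a TE change of -1.88 with a wide counting SE of 0.24, from 226 and 64 Ribo-Seq reads. C14orf2, which encodes a small protein of the mitochondrial ATP synthase, had 7.89 and 8.82 FPKM in RNA-Seq and 38.3 and 13.4 in Ribo-Seq, a TE change of -1.67 (SE 0.19). MTRNR2L1 had -1.79 (SE 0.08), but it is a near copy of mitochondrial rRNA and its reads may belong elsewhere.

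The opposite change, more footprints at steady RNA, was found in collagens and other matrix proteins, the secreted products that define a fibroblast. Of 19 tested collagens 17 rose in TE by 2-fold or more, beside 3.21% of all tested genes, with a median of 1.41 and none below 0. Their median RNA change was 0.17 and their median density change 1.58. The 21 collagen transcripts in both tables went from 2.13% to 7.19% of the Ribo-Seq reads and from 4.01% to 4.30% of the RNA-Seq reads.

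Individual collagens differed widely. COL5A1, a chain of the fibril-forming type V collagen, had 96.9 and 121 FPKM in RNA-Seq and 28.5 and 160 in Ribo-Seq, a TE change of 2.17 (SE 0.03). COL6A3, a chain of beaded-filament collagen VI, had 680 and 766 FPKM in RNA-Seq and 183 and 869 in Ribo-Seq, with 2.07 (SE 0.01). COL7A1, the anchoring-fibril collagen, gained RNA too, from 30.3 to 73.0 FPKM, and went from 5.97 to 74.2 FPKM in Ribo-Seq, a TE change of 2.37 (SE 0.06). COL1A1, a chain of type I collagen, the main fibrillar one, had 1642 and 1501 FPKM in RNA-Seq and 1063 and 3984 in Ribo-Seq, with 2.04 (SE 0.01). COL1A2 had a TE change of 1.28 (SE 0.01). COL8A1 with 0.79 (SE 0.07) and COL3A1 with 0.30 (SE 0.03) were the collagens that did not reach 2-fold.

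Of 42 other matrix and secreted glycoproteins 19 rose, beside 3.21% of all tested genes, with a median of 0.89, and 7 were below 0. FN1 (fibronectin) had 1249 and 1433 FPKM in RNA-Seq and 147 and 696 in Ribo-Seq, a TE change of 2.04 (SE 0.01). HSPG2 (perlecan), a basement membrane proteoglycan, lost RNA, from 56.6 to 34.8 FPKM, yet went from 10.6 to 57.6 FPKM in Ribo-Seq, a TE change of 3.14 (SE 0.04). At the low end stood LUM (lumican), a small proteoglycan of collagen fibrils, at -0.67 (SE 0.04), and PLOD2, a collagen lysyl hydroxylase, at -0.63 (SE 0.08).

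Very large proteins of the cell interior and surface were higher in TE as well. Of 26 very large cytoskeletal and membrane proteins 20 rose, beside 3.21% of all tested genes and 26.1% of the other genes in their range of transcript length, with a median of 1.44 and all 26 above 0, while their RNA had a median change of -0.28. PLEC (plectin), which links cytoskeletal filaments, had 167 and 109 FPKM in RNA-Seq and 14.6 and 99.4 in Ribo-Seq, a TE change of 3.38 (SE 0.03), the highest of the 7015 genes. LRP1, an endocytic receptor, had 116 and 122 FPKM in RNA-Seq and 30.4 and 207 in Ribo-Seq, a TE change of 2.69 (SE 0.02). FLNC (filamin C) had 157 and 144 FPKM in RNA-Seq and 28.4 and 132 in Ribo-Seq, with 2.35 (SE 0.03). In each of these genes footprints multiplied while the RNA stayed or dropped. NES (nestin), an intermediate filament protein, had a TE change of 2.36 (SE 0.05) and SPTAN1, the non-erythroid alpha spectrin, 2.04 (SE 0.05). Among the smallest changes in the list were those of the microtubule proteins MAP4, at 0.28 (SE 0.03), and MAP1B, at 0.30 (SE 0.04).

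These groups were also higher at 2 h, and much less so at 4 h, against the same control library. The median TE change of collagens was 1.13 at 2 h, 0.19 at 4 h and 1.49 at 19 h, and that of very large proteins 1.19, 0.33 and 1.30. From the control to the 19 h library, the Ribo-Seq level of COL5A1 was 28.5, 77.3, 41.1, 160 and 197 FPKM, and that of FN1 was 147, 476, 220, 696 and 781 FPKM. NES had 21.5, 125, 35.1, 88.4 and 97.5 FPKM, so its density at 6 h lay below that at 2 h. The libraries thus fall into a low pair, control and 4 h, and a high set, 2, 6 and 19 h, an order that does not follow the time of treatment. The study describes an effect of the sequencing run and compared each condition with a control of its own run, but the run of the 2 h and 4 h libraries is not given in the sources used here, so run and treatment cannot be told apart across these libraries. With the 2 h library as the baseline, the median TE change at 6 h was 0.23 for collagens, 0.21 for other matrix proteins and 0.29 for very large proteins, with 1 gene called higher in each list. For ribosomal proteins the median density change on that baseline was -0.51, against -0.76 from the control, beside the TE medians of -0.86 and -0.98 given above.

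These lists also differ in transcript length, and TE moved with length. The median transcript length was 908 nucleotides for ribosomal proteins, 6281 for collagens and 9492 for very large proteins, against 2604 for all tested genes. Tested genes were split by length into 10 bins of 701 or 702 genes. The bin of the shortest transcripts had a median TE change of -0.24 and that of the longest 0.21, with 68 and 3 genes called lower and 2 and 99 called higher. Leaving out ribosomal proteins, the shortest bin had a median of -0.18. Over all tested genes TE changed by 0.17 on the log2 scale per doubling of length, of which density gave 0.12 and RNA -0.05. The slope of TE against control was 0.11 at 2 h, -0.02 at 4 h and 0.16 at 19 h, so that 4 h was again the library nearest to the control.

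Other genes of like length had medians nearer to 0. Among 952 other genes whose transcripts lay between the quartiles of the ribosomal proteins, from 668 to 1383 nucleotides, the median TE change was -0.15 and 5.15% were called lower. Among 391 other genes in the length range of the collagens the median was 0.11 and 5.12% were called higher. Among 138 genes in the range of the very large proteins the median was 0.43 and 26.1% were called higher. With a linear length trend removed, the medians were -0.76 for ribosomal proteins, 1.22 for collagens and 1.052 for very large proteins. What part length, or a feature that goes with it, had in these changes was not tested.

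**Figure D5:**
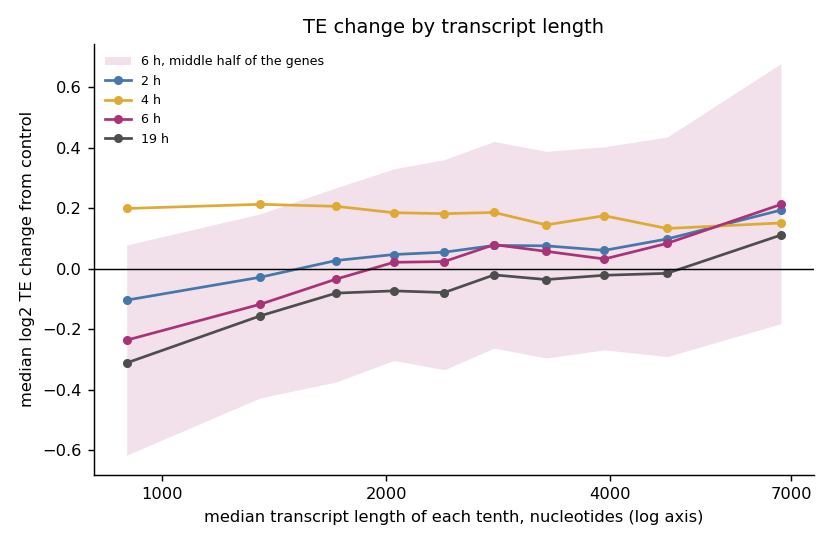
Median log2 TE change from the control in 10 bins of the 7015 tested genes by transcript length (log axis), with 1 line for each treated time and the range between quartiles shaded for 6 h. The line of 6 h goes from -0.24 in the shortest bin to 0.21 in the longest, and that of 4 h is nearly flat.

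Of the 225 genes with higher TE, 120 had transcripts of 5000 nucleotides or more (53.3%, against 13.3% of all tested genes), and 56 were on the 3 lists of collagens, matrix and very large proteins. Among the others ATXN7, the ataxin of the SAGA complex, had the largest rise at steady RNA. It had 6.00 and 5.25 FPKM in RNA-Seq and, from the control to the 19 h library, 72.3, 86.4, 259, 334 and 198 FPKM in Ribo-Seq, a TE change at 6 h of 2.40 (SE 0.07). Its footprints were many for its mRNA in the control already: 99.89% of tested genes had a lower ratio of Ribo-Seq to RNA-Seq there. Whether its Ribo-Seq reads come from its coding sequence was not tested.

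For the genes that p53 activation is best known to change, density followed RNA. Of 46 tested p53 targets 30 changed by 2-fold or more in RNA (beside 7.14% of all tested genes), each of them higher, and 32 were higher in density (beside 5.26%), with medians of 1.56 and 1.49, and the median TE change was 0.00, with 36 of 46 under 1.5-fold. Some members, GDF15, BBC3 and TP53INP1 among them, were under 5 FPKM in both control libraries. They entered only through treated libraries in which they are high, so the filter favoured a rise in them. The counts and medians of the list include such members. CDKN1A, the inhibitor p21, went from 68.6 to 1204 FPKM in RNA-Seq and from 164 to 3708 in Ribo-Seq, a TE change of 0.37 (SE 0.05). MDM2, the ubiquitin ligase of p53, went from 14.9 to 254 FPKM and from 5.45 to 65.8, with -0.50 (SE 0.08). FDXR, a mitochondrial reductase, and TP53I3, a quinone oxidoreductase, rose by 3.78 and 3.71 in log2 RNA, with TE changes of -0.01 (SE 0.13) and -0.28 (SE 0.12).

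Most p53 targets thus gained ribosomes in step with RNA, and the extremes of the list were RPS27L and GDF15. GDF15, a secreted cytokine, had a TE change of 1.1975 with a wide SE of 0.63, from 7 RNA-Seq and 23 Ribo-Seq reads in the control. Its RNA-Seq control of 0.245 FPKM was set to the floor of 1 FPKM. The sign of its TE change rests on that floor. BBC3 (PUMA) had 0.92 (SE 0.36) and TP53INP1 -0.83 (SE 0.26), also from few reads. The Ribo-Seq control of TP53INP1, 0.558 FPKM, was set to 1 FPKM as well, and the size of its TE change rests on that. RPS27L, a p53-induced paralog of the ribosomal protein RPS27, went from 85.8 to 247 FPKM in RNA-Seq but from 178 to 247 in Ribo-Seq, a TE change of -1.05 (SE 0.07). Its Ribo-Seq level was 119, 245 and 219 FPKM at 2, 4 and 19 h, so the 2 h library lay below the control.

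Cell-cycle genes dropped in both measures alike. Of 70 tested genes 66 fell in RNA (beside 5.39% of all tested genes) and 67 in density (beside 8.04%), with medians of -2.87 and -2.91. The median TE change was -0.10, with 57 under 1.5-fold. The median Ribo-Seq level of the list was 38.6 FPKM in the control and 4.65 at 6 h. Members under 5 FPKM at 6 h entered only through libraries in which they are higher, so the filter favoured a fall in them. The counts and medians of the list include such members. RRM2, a subunit of ribonucleotide reductase, went from 109 to 8.38 FPKM in RNA-Seq and from 136 to 10.5 in Ribo-Seq, a TE change of 0.01 (SE 0.09). CDK1, the mitotic kinase, went from 49.5 to 7.81 FPKM and from 48.7 to 5.66, with -0.44 (SE 0.16). MCM7, of the replicative helicase, had a TE change of -0.26 (SE 0.09) and HMGB2, a chromatin protein of dividing cells, -0.36 (SE 0.10). In TE, 2 of the 70 were called lower and 2 higher, few genes beside the 2.54% and 3.21% of all tested genes. They were RFC4 at -1.42 (SE 0.37), CKS1B at -1.04 (SE 0.14), MKI67 at 1.046 (SE 0.12) and E2F1 at 1.13 (SE 0.33). Of these RFC4 and E2F1 had 19 and 25 Ribo-Seq reads at 6 h.

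In a smaller set RNA changed and density did not. Of 501 genes with an RNA change of 2-fold or more, 405 changed in density by 2-fold or more in the same direction. In 41 the RNA fell and in 7 it rose while density changed by under 1.5-fold. FOSL1, an AP-1 subunit, went from 217 to 84.1 FPKM in RNA-Seq and from 254 to 209 in Ribo-Seq, a TE change of 1.09 (SE 0.04). TERT, here the introduced telomerase, went from 100 to 39.5 FPKM and from 46.1 to 47.8, with 1.39 (SE 0.05). SREBF1, the sterol regulatory factor, went from 25.4 to 10.2 FPKM and from 18.5 to 19.8, with 1.41 (SE 0.09), and KIAA0889 had 1.31 (SE 0.07). In these genes density stayed near the control level on less mRNA. In the other direction, HSDL2, NTPCR and the autophagy gene DRAM1 gained RNA by 1.28, 1.09 and 1.049 on the log2 scale and had TE changes of -0.77 (SE 0.12), -0.68 (SE 0.16) and -0.47 (SE 0.09). More widely, in 69 genes RNA was lower by 1.5-fold or more while TE rose by 2-fold or more, and 44 of them had a density change under 1.5-fold.

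The remaining lists held few genes past 2-fold in TE, to be read beside the 2.54% of all tested genes called lower and the 3.21% called higher. Immediate-early and short-lived regulators had a median of 0.47 over 34 genes, with 28 above 0 and 2 called higher, FOSL1 and the nuclear receptor NR4A1 (1.35, SE 0.34). NR4A1 passed the Ribo-Seq filter only through the 2 h library and had 38 and 42 Ribo-Seq reads in the control and at 6 h. KLF10 and KLF6 had the lowest values of that list, -0.13 (SE 0.09) and -0.09 (SE 0.08). Oxidative phosphorylation had a median of -0.37 over 59 genes, with 50 below 0 and 1 called lower, the complex I subunit NDUFB1 (-1.16, SE 0.11), and with SDHA at the upper end (0.33, SE 0.06). The proteasome had a median of -0.32 over 37 genes, with 33 below 0 and 1 called lower, PSMA4 (-1.01, SE 0.07). The cytosolic and mitochondrial chaperones had a median of -0.21 over 27 genes, with 1 called lower, HSPE1 (-1.04, SE 0.08), while the stress-inducible HSPA1B had 0.82 (SE 0.14) and BAG3 0.78 (SE 0.07). Median transcript length was 948 nucleotides for oxidative phosphorylation and 1483 for the proteasome, and other genes in their length ranges had median TE changes of -0.15 and -0.05.

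No gene passed 2-fold in TE in the lists of the contractile cytoskeleton, the endoplasmic reticulum chaperones, the ATF4 and upstream-reading-frame mRNAs, glycolysis or the mTOR pathway. Actin cytoskeleton genes had a median of -0.05 over 29 genes, from MYL12A at -0.89 (SE 0.04) to ZYX (zyxin) at 0.91 (SE 0.03). Endoplasmic reticulum chaperones had a median of 0.05 over 25 genes, while their RNA and density were both higher, at medians of 0.50 and 0.48. HYOU1, a chaperone of that compartment, went from 51.3 to 93.7 FPKM in RNA-Seq and from 39.2 to 112 in Ribo-Seq, a TE change of 0.64 (SE 0.04). ATF4 and upstream-reading-frame mRNAs had a median of 0.04 over 33 genes, from MTHFD2 at -0.65 (SE 0.08) to DDIT4 at 0.94 (SE 0.25). Glycolysis had a median of -0.01 over 17 genes, from SLC2A3 at -0.77 (SE 0.18) to HK2 at 0.78 (SE 0.10), and LDHA had -0.66 (SE 0.02). GAPDH, often used as a reference, had 2358 and 2692 FPKM in RNA-Seq and 2920 and 2577 in Ribo-Seq. Its TE change was -0.37 (SE 0.01). The study used it as a control in polysome fractions of another cell line, after a longer treatment, and reported no shift there.

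Among the genes that feed into mTOR, the median TE change was 0.25 over 24 genes, though it was -0.22 among members with a mean of at least 20 FPKM. By 2-fold or more, 3 changed in RNA, beside 7.14% of all tested genes, and each was higher. SESN1 went from 3.38 to 24.1 FPKM in RNA-Seq and from 2.21 to 11.3 in Ribo-Seq, a TE change of -0.48 (SE 0.19). SESN2 went from 4.53 to 21.1 FPKM and from 2.90 to 20.1, with 0.57 (SE 0.17). DDIT4 (REDD1), another inhibitor upstream of mTOR, went from 3.05 to 10.1 FPKM and from 2.87 to 18.2. The Ribo-Seq control rests on 91, 118 and 59 reads in these 3 genes. All 3 were under 5 FPKM in both control libraries and entered only through treated libraries in which they are high, so the direction of their change was favoured by the filter. With a floor of 5 FPKM the TE change of SESN2 turned to -0.067. STK11 (LKB1), a kinase upstream of mTOR, had a TE change of 0.76 (SE 0.13).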

How the data were processed

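Poly(A) RNA (RNA-Seq) and monosome footprints (Ribo-Seq) of BJ cells were measured in 10 libraries, 1 per group, of which 4 are compared here. Per the study's methods, reads were aligned with Bowtie to 1 protein-coding transcript per gene, and uniquely mapped reads were counted. The labels name hg19. The authors deposited FPKM, to 3 decimals, in 2 tables, one of which is named for both assays and was read as RNA-Seq. Transcript lengths and read counts, used for counting SEs and length, were recovered from the steps in the FPKM values, for 11254 of 11258 transcripts. The study's methods describe coding-sequence reads for Ribo-Seq. However, lengths recovered from each assay alone were the same in 95.5% of 5010 tested genes. Recovered Ribo-Seq totals were also near the study's non-rRNA read counts, which cover all regions. Density is thus read as including untranslated regions. The study lists a larger share of 3′ untranslated reads in the control beside its nutlin-3a libraries than at 6 h, and the effect of this was not tested. Library totals recovered this way were 7744900 to 14460726 reads (Ribo-Seq) and 23845559 to 27554288 (RNA-Seq), and precision is given as counting SEs only.

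Tables were joined on transcript. Values under 1 FPKM were set to 1, which touched 39 tested genes. RNA and density folds of such low genes are understated, and their TE changes can be moved either way. Genes with at least 5 FPKM in any library of each table were kept. With 1 library per group no test was made, and genes were called at 2-fold. Members and lists were chosen with earlier results of these data known. Named genes were the 8 largest TE rises and falls at steady RNA, the 4 largest density changes each way at steady TE, the 4 largest RNA changes each way at steady density (each with 5 FPKM in all 4 libraries), the 2 highest and 2 lowest TE changes of each list, and the 6 genes that the study followed. Genes named beside these were chosen after their values were seen. Starts were matched by symbol to RefSeq (GRCh38.p14) for 5806 of 7015 genes. Scripts used Python 3.11.15, pandas 2.3.3, NumPy 2.4.6 and Matplotlib 3.10.9, and were tested on simulated data.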

Additional observations from a re-analysis of the deposited data

Results flagged for a closer look

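Among transcripts left out of the comparison for low RNA-Seq values, 25 histone transcripts had signal in Ribo-Seq. Their median density change was -2.96 on the log2 scale, from a median of 850.9 FPKM in the control to 92.1 FPKM at 6 h, and all 25 were lower by 2-fold or more. Their RNA-Seq level in the control was at most 2.20 FPKM, and no TE change is given for them.

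The times share the control library. The medians of the TE change at 6 h and at 4 h had opposite signs in 13 of 23 lists, and over all tested genes the median at 4 h was itself 0.18. In the 5 lists given next, both medians lay beyond the counting error of a member. For ribosomal proteins they were -0.98 at 6 h and 0.14 at 4 h, for the large subunit -0.997 and 0.16, and for the small subunit -0.94 and 0.12. For elongation and termination factors they were -0.33 and 0.19, and for translation initiation factors -0.35 and 0.14. With 1 library per time, the difference between these times was not tested.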

How the results depend on the processing

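The count of genes with lower TE, 178, was 351 without the filter on low values, 67 at a mean of at least 20 FPKM, 91 against the 2 h library, 282 without the 2 most abundant Ribo-Seq transcripts, 863 at 1.5-fold and 22 at 3-fold. The count with higher TE, 225, was 386, 79, 59, 145, 931 and 38 under the same settings. The count with lower density, 564, was 163 at a mean of 20 FPKM, 1331 at 1.5-fold, 267 at 3-fold and 330 under the sliding limit of local SD in the study's methods. That with higher density, 369, was 137, 1051, 105 and 173 under those settings, and 160 against the 2 h library. The median TE change of ribosomal proteins, -0.98, was -0.86 against the 2 h library, -0.76 with the length trend removed and -1.10 without the 2 most abundant transcripts. Signs turned in 27 values, of which 22 started within their counting error of 0. Of the other 5, SESN2 turned with a floor of 5 FPKM (-0.067) and the mTOR list at a mean of 20 FPKM (-0.22). NES (-0.17), MDM2 (0.19) and SESN1 (0.23) turned against the 2 h library. These counts cover the lists and 37 named genes. The highest and lowest members of each list were included only where also named on other grounds. Against the 2 h library some of those turned too, while others kept their sign. Among those that turned were VIM (-0.59), COL3A1 (-0.26), COL8A1 (-0.23), MKI67 (-0.09) and NR4A1 (-0.79). Fewer genes, 2575, were tested at a mean of at least 20 FPKM, and why the counts moved was not tested for any setting. Of 175 list medians, 135 moved by less than counting error and 39 moved further, and of 284 values of named genes 223 and 57. The length windows, counts against the 2 h library, the tract at the start itself and the counts by length and 100 reads were chosen after seeing the data. No replicate could be left out, and no difference has an error from replicates. No paired analysis was possible because each group had 1 library.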
